A study of Homo sapiens with 17 samples.

Results

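The cytosolic ribosomal protein genes encode the proteins of the large and the small subunit of the ribosome that translates nuclear mRNAs. They were chosen by symbol, as RPL or RPS followed by a number, with the paralog endings A, X, L, AL and L1, together with RPSA and the stalk genes RPLP0, RPLP1 and RPLP2, which leaves out pseudogenes, mitochondrial ribosomal proteins and the RPS6 kinases. Of the 19222 genes listed in the 1 h experiment, 85 met this rule: 50 of the large subunit, 32 of the small subunit and 3 of the stalk, spread over 21 chromosomes. 8 of the 85 are paralogs of another member (RPL3L, RPL7L1, RPL10L, RPL22L1, RPL26L1, RPL36AL, RPL39L and RPS27L). In the tables of the 2 h experiment, 78 of 9982 genes met the rule.

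A ribosome holds 1 copy of nearly every one of these proteins, and their mRNAs are among the most abundant of a growing cell. Most begin with a terminal oligopyrimidine (TOP) tract, a C at the cap followed by an unbroken run of pyrimidines, through which growth signals control how many of these mRNAs are translated. TOP mRNAs are known as long-lived messages. Several ribosomal proteins, among them RPL3, RPL10A and RPL12, act back on the splicing of their own transcripts, and isoforms made in this way carry early stop codons and are degraded during translation.

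The cells were HEK-293T, an established human embryonic kidney line, so that all values are of 1 line. In the 1 h experiment, 3 untreated libraries came from cells given 500 µM s4U alone and 3 emetine libraries from cells given 500 µM s4U with 1.8 µM emetine, an alkaloid that blocks the translocation of the ribosome. 1 untreated and 1 emetine library came from cells without s4U. s4U (4-thiouridine) enters RNA made during the hour, and TimeLapse chemistry then makes it read as C in place of T, so that the share of reads from RNA made within the hour, the fraction new, can be estimated for each gene. The 2 h experiment had 3 untreated libraries, 3 with 1.8 µM and 3 with 240 µM emetine, labeled as 250 µM s4U, and only the authors' mean over these 9 libraries was used.

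The 8 libraries of the 1 h experiment held 22246279 to 40018063 reads given to a gene, and 0.304% to 0.728% of their reads were of spike-in sequences. Markers of HEK-293T were present (LIN28B at 49.8 to 93.4 CPM, counts scaled to library size), and markers of other lineages summed to 0.347 CPM at most. PTPRC, HBB, MYH6 and CD3E were not listed. Emetine replicate 3 stood apart from the other libraries: the biological coefficient of variation over all genes was 13.3% with it and 6.45% without it, and results that rest on it are marked below. Nothing states that replicates came from separate cultures, so p-values measure the spread between these libraries only.

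What the members share at their transcription start was read from RefSeq promoters (GRCh38.p14), in which 68 of the 85 had an entry. A C at the annotated start that opens a run of at least 5 pyrimidines, searched on the gene's own strand, was found in 43 of the 68 (63.2%), against 4.04% of all 27305 promoters. A run of at least 5 pyrimidines that begins with C anywhere within 10 bases of the start was found in 57 of the 68 (83.8%), against 33.3% of all. Of the 6 paralogs with an entry, 1 (RPL22L1) had the tract at the start, and of the other 62 members 42 had it. The sequences below run from 10 bases before to 20 bases after the annotated start, 5′ to 3′ on the gene's strand, with the tract in capitals. They are shown because they hold the feature the members share, and because each paralog can be read beside its parent.
RPS3 (chr11:75399508-75399537, plus strand): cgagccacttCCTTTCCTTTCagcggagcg
RPL35 (chr9:124861938-124861967, minus strand): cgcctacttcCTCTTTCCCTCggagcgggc
RPLP2 (chr11:809957-809986, plus strand): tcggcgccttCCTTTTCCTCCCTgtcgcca
RPS9 (chr19:54200848-54200877, plus strand): gcttccgcgcCTCTTTCTCagtgaccgggt
RPL26 (chr17:8383174-8383203, minus strand): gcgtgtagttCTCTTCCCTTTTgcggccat
RPL26L1 (chr5:172958719-172958748, plus strand): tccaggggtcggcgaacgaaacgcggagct
RPS27 (chr1:153990752-153990781, plus strand): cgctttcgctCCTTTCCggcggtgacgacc
RPS27L (chr15:63157458-63157487, minus strand): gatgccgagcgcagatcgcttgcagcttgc
RPL22 (chr1:6199576-6199605, minus strand): cgctcacctcCCTTTCTaactccgctgccg
RPL22L1 (chr3:170870176-170870205, minus strand): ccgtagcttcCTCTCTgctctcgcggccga
RPL3 (chr22:39319604-39319633, minus strand): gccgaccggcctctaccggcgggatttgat
RPL10A (chr6:35468391-35468420, plus strand): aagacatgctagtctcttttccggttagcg

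RPL26 and RPS27 had tracts of 12 and 7 bases at the start, and their paralogs RPL26L1 and RPS27L had none. RPL22 and RPL22L1 both had one, of 7 and 6 bases. RPL3 had a run of 4 bases and so stayed under the minimum of 5, and RPL10A had its longest run from a C, of 9 bases, a few bases inside the start. A match is a description of these letters and not of a site in use, and a gene without one may start elsewhere in these cells.

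Ribosomal protein mRNAs were a large part of the reads in untreated cells. Their share of gene reads was 10.6%, 10.5% and 11.2% in the 3 untreated libraries. With no more than 100 reads in total, RPL3L and RPL10L were not tested, and the other 83 members had a median level of 1273 CPM, against 25.7 CPM for all 13776 genes tested. Of the 115 genes over 1000 CPM, 56 were members. Per kb of the longest annotated transcript the median was 676 CPM, against 6.22 over all genes. The coding sequences were short, with a median of 453 nt against 1422 nt.

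The highest members by CPM per kb were RPL8 (3656 ± 96.4, SD, n = 3), a protein of the core of the large subunit, RPS2 (3381 ± 271) and RPS4X (2288 ± 49.6), both of the small subunit. In CPM, RPS4X had 4165, 4073 and 4253 in the untreated libraries, and RPS2 had 4788, 5621 and 5292. Per kb, the ranges of RPL8 and RPS2 overlapped and RPS4X lay below both. The lowest were RPL3L, known from striated muscle, with 2, 13 and 1 reads in the untreated libraries, and RPL10L, an intronless copy known from testis, with 2, 6 and 7. RPL36A followed with 5.83 ± 1.79 CPM per kb, but most reads that touch it were not given to it.

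Reads shared with an overlapping annotation set the level of 3 members. Over the 8 libraries, 259339 reads lay in both RPS10 and another annotated gene and were given to neither, which is 84.3% of all RPS10 reads, against 48408 reads given to RPS10 alone. The same held for 79.0% of RPL17 reads (89597 against 23804 of its own) and 65.9% of RPL36A reads (5260 against 2720). Their levels are therefore understated here. RPL17 was chosen for this after its values were seen. Levels of further members may also be incomplete. In untreated replicate 1, RPL21 had 60 reads across a splice junction and 28 without one, and RPS26 had 293 and 347. The cause of these low counts was not tested.

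Ribosomal protein mRNAs were made slowly relative to their level. With at least 100 reads required in each of the 6 s4U libraries, 82 members could be measured, all but RPL3L, RPL10L and RPL21. Their median fraction new was 3.04%, 3.74% and 4.12% in the untreated libraries, against 9.26%, 12.3% and 14.7% over all 10763 genes measured. The median member stood at the 11.1, 9.17 and 6.88 percentile of all genes. In every untreated library, 73 of the 82 lay under the percentile 25 of all genes, as did 19.3% of all genes, and 31 lay under the percentile 10 (5.93% of all genes). In the libraries without s4U, the median estimate was 0.002% (untreated) and 0.003% (emetine), and the highest was that of RPS27A, at 0.438% and 0.582%.

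**Figure D1:**
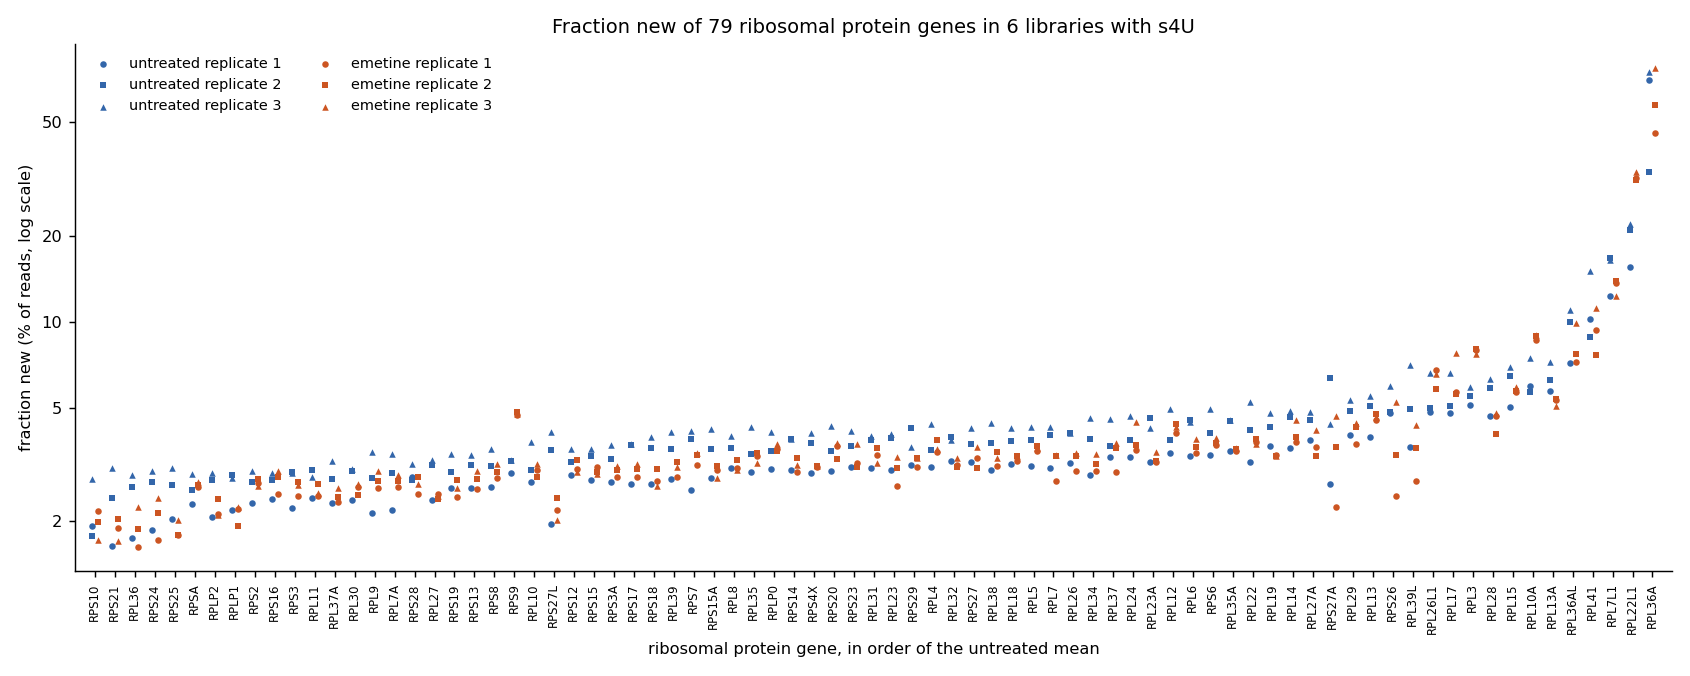
Fraction new (percent of reads, log axis) of 79 of the measured ribosomal protein genes, in order of the untreated mean, with a point for each of the 3 untreated (blue) and 3 emetine (orange) libraries. Most untreated means lie between 2% and 5%, and those of RPL41, RPL7L1, RPL22L1 and RPL36A, at the right, are above 10%.

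The members lay in a narrow band. The mean fraction new was between 2% and 5% for 68 of the 82, between 5% and 10% for 10 and above 10% for 4. The counting error of a single value had a median of 0.113 percentage points (range 0.0393 to 3.38), while the median member ran from 3.04% to 4.12% over the untreated libraries. This spread was largely shared by the members: untreated replicate 1 was the lowest of the untreated libraries for 77 of the 82 and replicate 3 the highest for 72. The order was not particular to them, as the median over all genes also rose from 9.26% to 12.3% and 14.7%. Under the assumption of a steady state, the median half-life was 22.4, 18.2 and 16.5 h in the untreated libraries (mean 19.0 ± 3.07 h, n = 3), against 5.58 ± 1.41 h over all genes. 77 of the 82 had a half-life over 10 h (median of the untreated libraries) and 27 over 20 h, and 3 had one under 5 h. Labeling lasted 1 h, so half-lives of this length rest on a few percent of the reads.

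Small subunit genes had lower medians than large subunit genes in each of the 6 libraries. For the small subunit the median fraction new was 2.70%, 3.34% and 3.61% in untreated cells and 2.80%, 3.0% and 2.98% with emetine. For the large subunit it was 3.36%, 3.99% and 4.52%, and 3.42%, 3.60% and 3.61%. The stalk genes, whose proteins recruit translation factors to the ribosome, were lower still in untreated cells, with a median of 2.19%, 2.91% and 2.94%. The paralogs were the highest of the groups, with 6.01%, 7.45% and 9.02% over the 6 that could be measured. The paralogs are also counted in the subunit lists, all but RPS27L in that of the large subunit, and the subunits were not compared without them. The medians are descriptions of lists and were not tested.

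The lowest fraction new values were those of RPS10, RPS21 and RPL36. RPS10 (eS10), a small subunit protein that is ubiquitylated on collided ribosomes, had 1.92%, 1.77% and 2.82% in the untreated libraries, a half-life of 35.7, 38.8 and 24.2 h. RPS21 had 1.64%, 2.41% and 3.07%, and RPL36 had 1.74%, 2.64% and 2.91%. The 3 genes overlapped each other in these values. RPS3, which lies next to RPS10 at the mRNA entry side of the small subunit, had 2.22%, 2.97% and 2.96%, and RPS20, a further ubiquitylation target of collided ribosomes, had 3.0%, 3.51% and 4.31%.

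RPL5 and RPL11, which enter the ribosome together in a particle with an rRNA, had different values. RPL5 had a fraction new of 3.13%, 3.86% and 4.29% and RPL11 of 2.41%, 3.03% and 2.86%, so that RPL11 was lower in each untreated library. RPL35 had 2.98%, 3.44% and 4.26%, close to the median member in each library. RPS27A, which is made as a fusion with ubiquitin, had the values 2.71%, 6.32% and 4.38%, a wider spread than other members of its level, and it is also the member with the highest value in the libraries without s4U.

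The stalk genes and RPSA were all long-lived. RPLP0, the base of the stalk, had a fraction new of 3.05%, 3.54% and 4.12%. RPLP1 and RPLP2, which bind to it as dimers, had 2.19%, 2.91% and 2.83%, and 2.06%, 2.79% and 2.94%, below RPLP0 in each library. RPSA, which also serves as a laminin receptor, had 2.30%, 2.58% and 2.92%, a half-life of 29.8, 26.6 and 23.4 h.

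4 members had a fraction new over 10%. RPL22L1 had 15.5%, 20.9% and 21.9%, a half-life of 4.12, 2.96 and 2.80 h, and RPL7L1, a paralog of RPL7 that acts in ribosome assembly, had 12.3%, 16.7% and 16.4%, a half-life of 5.27, 3.79 and 3.86 h. RPL41, the smallest ribosomal protein (chosen after its values were seen), had 10.2%, 8.85% and 15.1%. RPL36A had 70.0%, 33.3% and 74.7%. RPL41 overlapped the next gene in the order, RPL36AL (7.19%, 9.93% and 11%), and the other 3 lay above it in each untreated library.

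For RPL36A, the value depended on which reads were counted. Reads that cross a splice junction gave 21.4%, 8.69% and 19.6%, and reads without a junction gave 91.1%, 79.9% and 95%. Reads it shares with the read-through gene RPL36A-HNRNPH2, which hold most of its signal, gave 3.82%, 2.49% and 5.79%, within the range of the other members. The number of junction reads was 108, 416 and 56 in these libraries. RPL17 showed a smaller difference of the same kind, with 3.55%, 4.23% and 5.47% over junctions and 12.7%, 14.2% and 10.9% without. For RPS10, the shared reads gave 1.59%, 2.42% and 2.74%, which overlaps the values from its own reads.

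**Figure D2:**
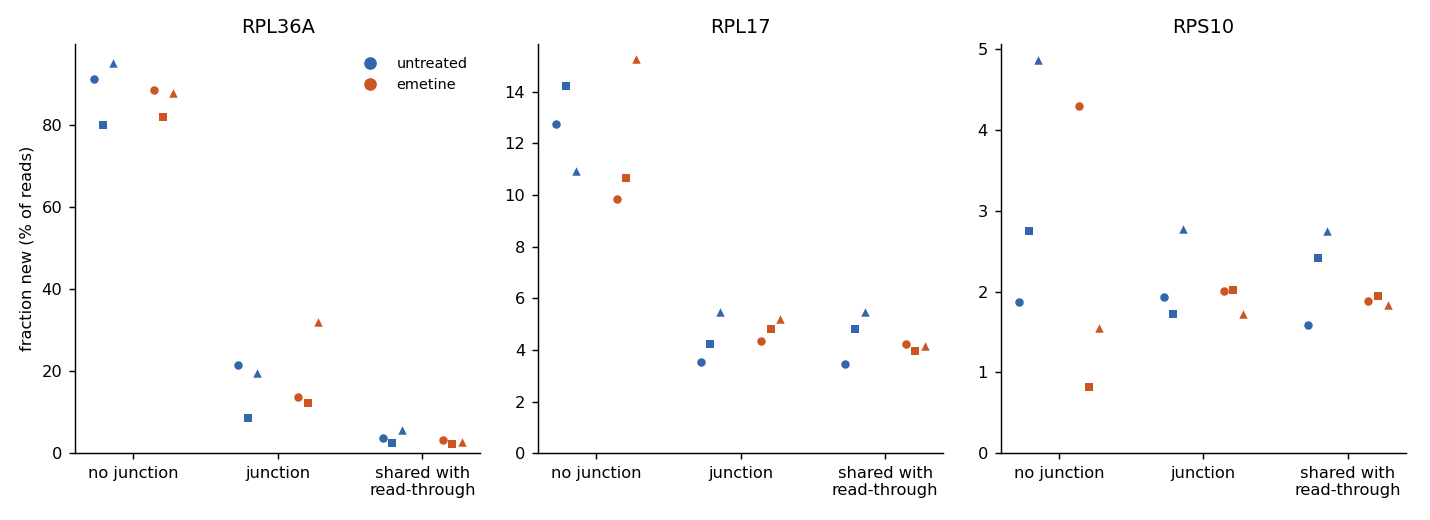
Fraction new (percent of reads) of RPL36A, RPL17 and RPS10 from reads without a splice junction, reads across one and reads shared with a read-through gene, each panel with its own axis. Points are the 3 untreated (blue) and 3 emetine (orange) libraries, and the RPL36A values run from 2.41% for shared reads to 95% for reads without a junction.

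RPL13A, also chosen after its values were seen, is the host of small nucleolar RNAs in its introns. Its fraction new over junctions was 3.83%, 4.48% and 5.12%, and without junctions 11.9%, 13.7% and 13.7%. Reads without a junction gave the higher value in each untreated library. This was not particular to RPL13A and not found in every member. RPL27A had 2.24%, 2.53% and 3.06% over junctions and 9.74%, 14.4% and 10.7% without. RPS6 had 3.35%, 4.02% and 5.17% over junctions and 3.59%, 4.49% and 4.21% without. Both were named after their values were seen.

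After 1 h of emetine, the fraction new of the median ribosomal protein mRNA lay within the untreated range. The median over the 82 was 3.05%, 3.29% and 3.37% in the emetine libraries, inside the range of the untreated libraries (3.04% to 4.12%). If a steady state is assumed, this gives a median half-life of 22.4, 20.7 and 20.2 h (21.1 ± 1.14 h, n = 3). Emetine was given together with the label, so a steady state was not shown and these are not measured half-lives. RPL22L1 rose (limma on the logit of the fraction new, adjusted p under 0.05 over all genes), 1 of the 82, where 0.214% of all genes were higher. None of the 82 was lower, where 4.83% of all genes were lower. At an unadjusted p under 0.05, 1 member was higher (1.15% of all genes) and 0 lower (15.4% of all genes). The median change in logit was −0.11 (all genes −0.16), and 69 of the 82 were below 0 (75.6% of all genes). With each library centered on its median gene, the median member was at 0.01 (all genes −0.035), and 35 of the 82 were below 0 (56.0% of all genes), so that the sign of the median depended on the centering.

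**Figure D3:**
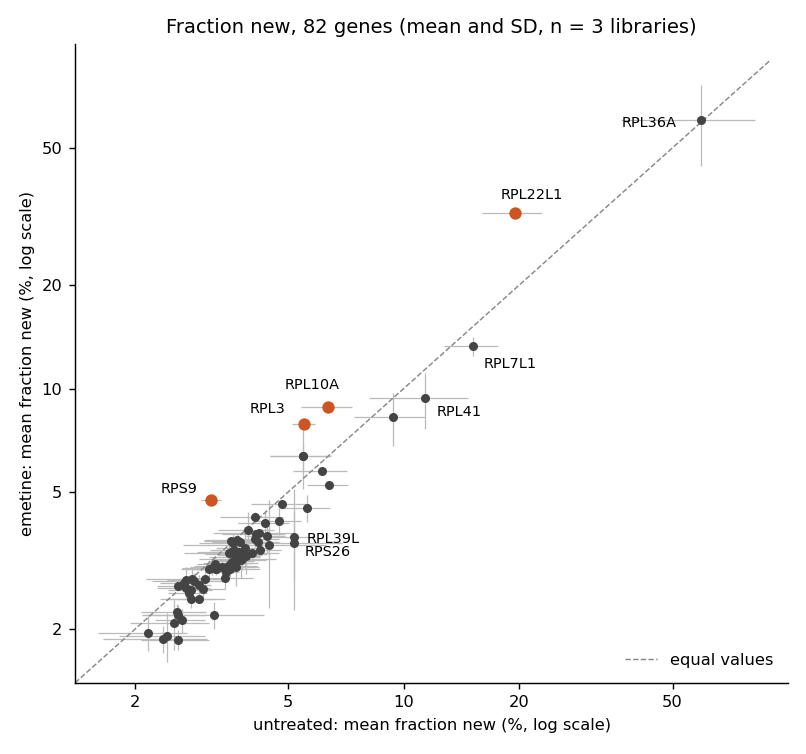
Mean fraction new of 82 ribosomal protein genes in emetine (vertical axis) against untreated libraries (horizontal axis), both in percent on log axes, with SD bars over 3 libraries and a dashed line of equal values. RPL22L1, RPL3, RPL10A and RPS9 (orange) lie above the line, with 32.2% against 19.4% for RPL22L1.

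RPL22L1 is a paralog of RPL22, and RPL22 protein is known to act on the splicing of the RPL22L1 transcript. The gene lies at chr3:170864875-170870208 on the minus strand. Its fraction new was 15.5%, 20.9% and 21.9% in untreated and 31.8%, 31.3% and 33.5% in emetine cells, so that all emetine libraries lay above all untreated ones. The change in logit was 0.69 (SE 0.21, adjusted p = 0.0375). With each library centered on its median gene, it was 0.81 (SE 0.088, adjusted p = 0.00475), and 0.76 (adjusted p = 0.0196) when emetine replicate 3 was also left out.

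The call of RPL22L1 was lost when single libraries were left out without centering. The adjusted p was 0.148 without untreated replicate 2, 0.0664 without untreated replicate 3, and 0.222, 0.183 and 0.225 without emetine replicates 1, 2 and 3. It was 0.0123 without untreated replicate 1, with a change in logit of 0.56. The adjusted p was 0.0820 with a minimum of 50 reads and 0.0619 when reads with at least 2 conversions were counted. Over junction reads, the values were 12.2%, 18.7% and 19.1% against 29.2%, 28.6% and 30.4%, which also do not overlap.

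The level of RPL22L1 was 38.2, 35.6 and 47.3 CPM in untreated and 47.0, 44.9 and 29.4 CPM in emetine libraries, with a log2 fold change of 0.01 (SE 0.18, edgeR adjusted p = 0.984), and of 0.20 (SE 0.096, adjusted p = 0.181) without emetine replicate 3. Its labeled reads came to 5.92, 7.44 and 10.4 CPM, and to 15, 14.1 and 9.87 CPM with emetine (log2 fold change 0.69, SE 0.24, adjusted p = 0.159). Labeled reads were thus higher in emetine replicates 1 and 2 than in any untreated library, while emetine replicate 3 lay within the untreated range. Its parent RPL22 did not pass the test, with a fraction new of 3.22%, 4.16% and 5.22% against 3.80%, 3.88% and 3.73%.

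RPL3, RPL10A and RPS9 were the other members with every emetine library above every untreated one, so that 4 of 82 had this order (2.19% of all genes). RPL3, a large subunit protein near the peptidyl transferase center, had 5.11%, 5.50% and 5.88% against 7.94%, 7.99% and 7.71%. RPL10A, of the L1 stalk (chosen after its values were seen), had 5.95%, 5.68% and 7.49% against 8.64%, 8.90% and 8.98%. RPS9, of the small subunit, had 2.95%, 3.26% and 3.28% against 4.70%, 4.81% and 4.73%. The gaps between the groups exceeded the spread within them for RPL3 and RPS9.

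Without centering, these 3 did not pass the test: the change in logit was 0.39 (SE 0.22, adjusted p = 0.389) for RPL3, 0.36 (SE 0.22, adjusted p = 0.433) for RPL10A and 0.42 (SE 0.23, adjusted p = 0.372) for RPS9. With centered libraries all 3 passed, with changes of 0.51 (adjusted p = 0.0403), 0.49 (adjusted p = 0.0478) and 0.55 (adjusted p = 0.0447). In that fit 4 members were higher, where 1.17% of all genes were, and none was lower (6.95% of all genes). When emetine replicate 3 was also left out, the adjusted p was 0.102, 0.123 and 0.115, and 1 member, RPL22L1, was higher (0.344% of all genes).

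**Figure D4:**
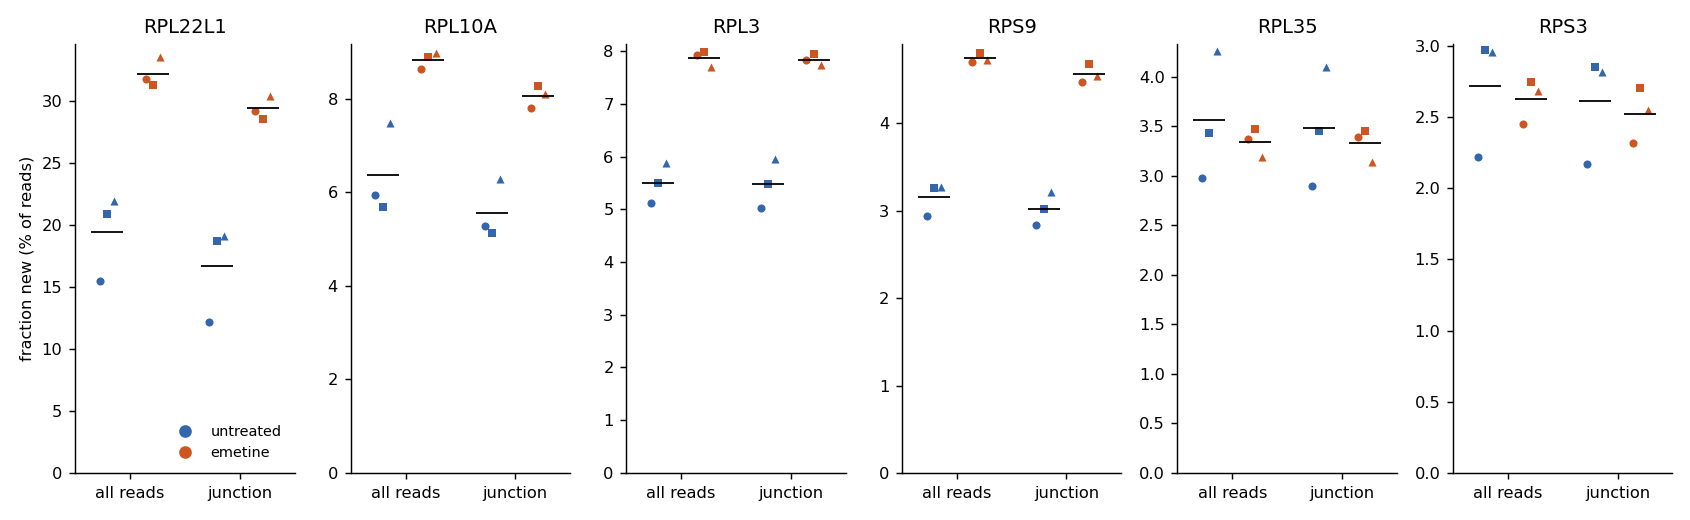
Fraction new (percent of reads) of 6 genes in the 3 untreated (blue) and 3 emetine (orange) libraries, from all reads and from reads across a splice junction, with bars at the mean and an axis for each gene. For RPL22L1, RPL10A, RPL3 and RPS9 the emetine points lie above all untreated points in both kinds of reads, and for RPL35 and RPS3 they overlap.

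In junction reads alone the order was unchanged for these 3 genes. RPL3 had 5.02%, 5.48% and 5.96% against 7.83%, 7.94% and 7.74%, RPL10A had 5.27%, 5.13% and 6.29% against 7.80%, 8.26% and 8.11%, and RPS9 had 2.83%, 3.03% and 3.22% against 4.48%, 4.68% and 4.55%. As half-lives under a steady state, the values were 13.2, 12.3 and 11.4 h against 8.38, 8.33 and 8.64 h for RPL3, and 23.2, 20.9 and 20.8 h against 14.4, 14.1 and 14.3 h for RPS9. A change in synthesis within the hour also moves the fraction new, so for genes that changed these are not measured half-lives. The labeled reads of RPL3 were 138, 153 and 169 CPM against 199, 210 and 146 CPM, with emetine replicate 3 the exception again. None of the 3 genes passed the test for labeled reads.

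With centered libraries, 8 members had every emetine library above every untreated one (10.5% of all genes): the 4 above and RPL12, RPL7A, RPL9 and RPS2. Every emetine library lay below every untreated one without centering for 4 of 82 (16.8% of all genes), among them RPL13A, RPL19 and RPS25. RPS25, of the small subunit, had a fraction new of 2.04%, 2.69% and 3.07% against 1.79%, 1.80% and 2.02%. These members were named after their values were seen, except RPS2, and none of the 4 lower ones passed the test.

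The members with the smallest p for a lower fraction new were RPL39L, RPS26 and RPS27L, and none passed. RPL39L had 3.64%, 4.93% and 7.04% against 2.76%, 3.60% and 4.36% (change in logit −0.37, SE 0.24, adjusted p = 0.468). RPS26, at the mRNA exit of the small subunit, had 4.79%, 4.82% and 5.95% against 2.44%, 3.40% and 5.25% (adjusted p = 0.424), and RPS27L had 1.96%, 3.55% and 4.11% against 2.18%, 2.41% and 2.02% (adjusted p = 0.619). In each of the 3, emetine and untreated values overlapped.

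Among the other named members, the groups overlapped as well. RPS10 had 2.17%, 1.98% and 1.72% with emetine, RPS3 had 2.45%, 2.75% and 2.68%, and RPS20 had 3.67%, 3.30% and 3.75%. RPL35 had 3.37%, 3.47% and 3.19%, RPL5 had 3.52%, 3.67% and 3.60%, and RPL11 had 2.46%, 2.70% and 2.51%. RPLP0 had 3.57%, 3.53% and 3.73%, and RPS4X had 3.10%, 3.12% and 3.13%, each inside its own untreated range. Over the 82 genes, the order of the mean fraction new in emetine followed that in untreated cells (Spearman's rho 0.927), as a description over genes that share their libraries.

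Ribosomal protein mRNAs had lower relative levels after emetine, but no member passed the test with all libraries. Their share of gene reads was 9.68%, 10.3% and 6.84% in the emetine libraries, against 10.5% to 11.2% in untreated cells. Of the 83 members tested with edgeR, 81 had a log2 fold change below 0 (46.0% of all genes), with a median of −0.36 (all genes 0.03) and a range of −0.60 to 0.43. None was lowered at an adjusted p under 0.05 (0.0363% of all genes) and none raised (2.42% of all genes). At an unadjusted p under 0.05, 10 were lower (6.53% of all genes) and 0 higher (14.7% of all genes). The count lower was 43 (12.4% of all genes) without emetine replicate 3 and 0 (2.60% of all genes) without untreated replicate 1. At an adjusted p under 0.05, DESeq2 lowered none (1.25% of all genes) and raised none (6.59% of all genes). For 44 of the 83, every emetine library lay below every untreated one (15.2% of all genes), and for none above (19.5% of all genes). These levels are relative, so less RNA of the members and more RNA of other genes cannot be told apart by them.

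Emetine replicate 3 was the lowest of the 6 libraries for 81 of the 83 members. The median member stood −0.84 (log2) from the untreated mean in this library, −0.21 in emetine replicate 1 and −0.12 in emetine replicate 2. In this library, the deviation from the mean of the 6 libraries also rose with transcript length over 11409 genes (Spearman's rho 0.649, a description). With a trend on length removed, the median member was at −0.31 and the median gene at −0.025. Length here was that of the longest annotated transcript, with a median of 1909 nt over the members, whose coding sequences had a median of 453 nt. Single members moved unevenly, as RPL36 from −0.28 to −0.05 and RPS20 from −0.38 to −0.48. Whether this removed the length effect for the members was not tested.

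**Figure D5:**
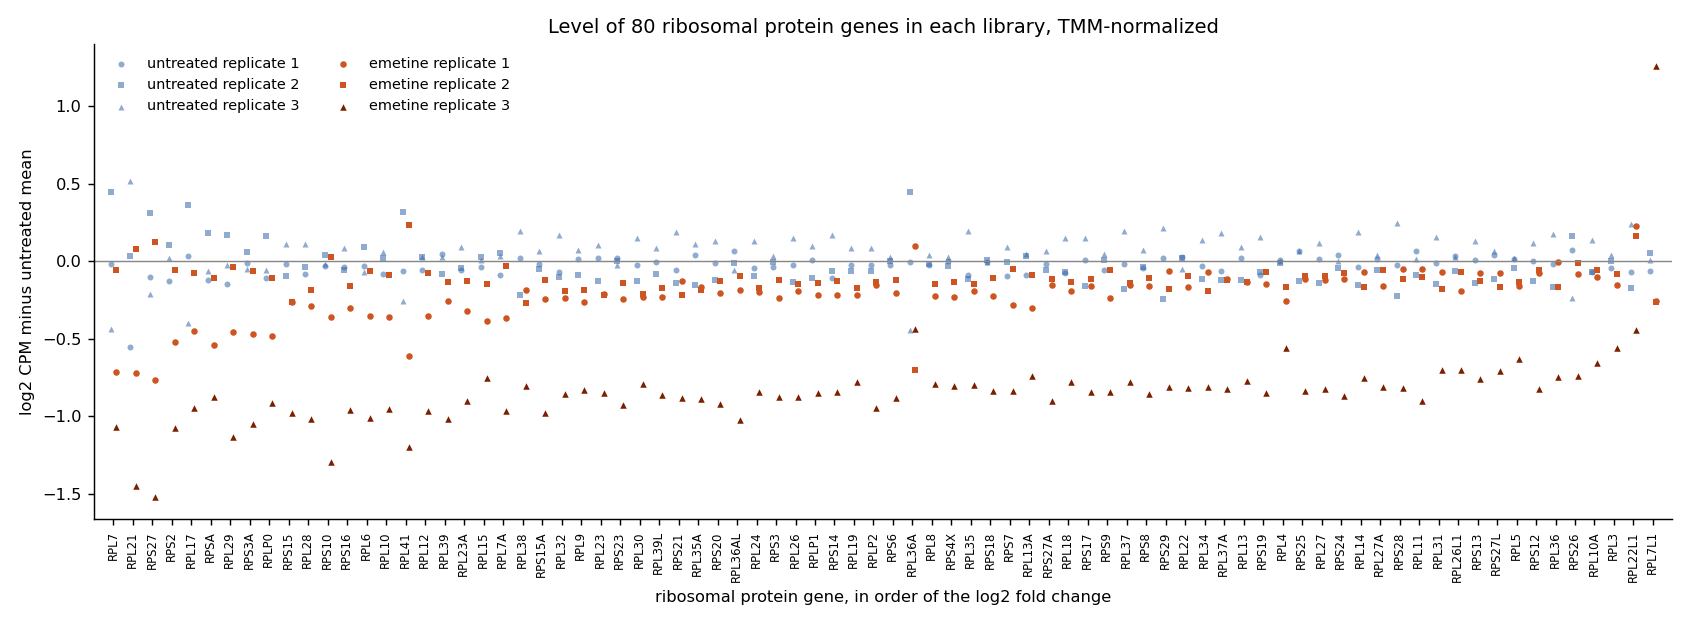
Log2 CPM of 80 of the tested ribosomal protein genes in each of the 6 libraries with s4U minus the mean of the untreated libraries, with genes in order of their log2 fold change. Over all 83 tested, emetine replicate 3 (dark triangles) has its median at −0.84, and emetine replicates 1 and 2 have theirs at −0.21 and −0.12.

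Without emetine replicate 3, the members remained slightly lower and the spread was smaller. The median was −0.17 (all genes 0.01), 82 of the 83 were below 0 (48.1% of all genes), and 10 were lowered (4.16% of all genes) with none raised (10.3% of all genes). Among the 10 were RPL4, RPL7L1, RPL9, RPL15, RPL23A, RPL28, RPS15 and RPS16, of which RPL15 and RPL7L1 are within the rule for naming genes and the others were named after their values were seen. With spike-in reads as the scale, the median gene moved to 0.71 and the median member to 0.30, with 3 members (RPL7, RPL21 and RPS27) still below 0 (0.537% of all genes) and none raised (0.399% of all genes) or lowered (0.00% of all genes). RPL7 was at −0.09 (SE 0.45) and RPS27 at −0.11 (SE 0.45). Nearly all their reads crossed a splice junction (11726 against 29 without one, and 10115 against 3, in untreated replicate 1). RPL21 had 60 and 28 there. What such read losses do to these levels was not tested. The sign of the members' own change depended on the scaling.

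RPL15 and RPSA were among the 3 members with the smallest p-values for a lower level. RPL15, of the large subunit, had 1649, 1730 and 1705 CPM against 1299, 1533 and 1004 CPM, a log2 fold change of −0.41 (SE 0.16, adjusted p = 0.208). Without emetine replicate 3 it was −0.26 (SE 0.073, adjusted p = 0.0286). RPSA had 1587, 1953 and 1651 CPM against 1183, 1599 and 939 CPM (−0.48, SE 0.19, adjusted p = 0.214), and an adjusted p of 0.177 without emetine replicate 3.

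RPL7L1 and RPL22L1 were the members with a log2 fold change above 0. RPL7L1 had 36.5, 39.5 and 38.3 CPM in untreated and 31.9, 31.8 and 91.5 CPM in emetine libraries, so that emetine replicate 3 alone was high. Its log2 fold change was 0.43 (SE 0.37, adjusted p = 0.483) with that library and −0.26 (SE 0.073, adjusted p = 0.0290) without it. RPL7, its parent, had the lowest estimate, at −0.60 (SE 0.28, adjusted p = 0.250) and at −0.39 (adjusted p = 0.605) without emetine replicate 3, with 421, 581 and 315 CPM against 260, 409 and 203 CPM. Nearly all reads counted for RPL7 crossed a splice junction (11726 against 29 in untreated replicate 1), and the effect on its level was not tested.

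The libraries without s4U, 1 of each kind and not part of the main test of level, gave a smaller difference in level. The background conversion rates behind the fraction new were taken from them. The members' share of gene reads was 10.4% untreated and 10.2% with emetine. The median log2 ratio of emetine to untreated was −0.049 over the 83 members, 55 of them below 0, against 0.000 over all genes, of which 6986 of 13977 were below 0. The members ranged from −0.32 to 0.44. With 1 library each, there is no replicate check.

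Splitting the level into RNA made before and during the hour gave lower values in both parts. The median log2 fold change was −0.53 for labeled reads (all genes −0.14) and −0.39 for unlabeled reads (all genes 0.04). For labeled reads, 2 of 82 were lowered (0.632% of all genes), RPL28 among them, and none was higher (0.260% of all genes). RPL28 is of the large subunit and was named after its values were seen. It had 47.9, 62.0 and 73.5 CPM of labeled reads against 41.2, 38.5 and 25.6 CPM (−0.80, SE 0.21, adjusted p = 0.0264). Every emetine library lay below every untreated one. Its fraction new over junction reads overlapped, with 2.78%, 3.88% and 4.01% against 2.98%, 2.95% and 3.37%. Reads without a junction gave 22.58%, 28.55% and 28.33% against 15.73%, 16.48% and 12.94%. The labeled reads of the 2 kinds were not tested apart, so the call is not one of spliced RPL28 mRNA alone.

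Those counts depended on single libraries. Without untreated replicate 1, which had the lowest fraction new of the untreated libraries, 63 of the 82 were lowered in labeled reads (16.1% of all genes), and without emetine replicate 3 none was (0.0743% of all genes). For unlabeled reads, none was called in either direction with all libraries (7.30% of all genes higher, 0.0929% lower), and 8 were lowered without emetine replicate 3 (3.56% of all genes).

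The ratios of paralogs to their parents, in CPM per kb of coding sequence, were small in untreated cells. RPL26L1 was at 8.88%, 8.97% and 7.83% of RPL26, and at 8.56%, 9.02% and 9.63% with emetine. RPL39L, known from testis, was at 2.70%, 2.80% and 2.91% of RPL39, and at 2.86%, 2.72% and 3.12% with emetine. RPS27L, a p53 target, was at 15.2%, 10.2% and 16.6% of RPS27, and at 22.1%, 11.2% and 24.1%. In all 3 pairs untreated and emetine ratios overlapped.

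RPL22L1 was at 7.68%, 7.20% and 10.0% of RPL22 in untreated and at 10.8%, 9.83% and 10.6% in emetine libraries, which overlap between 9.83% and 10.0%. RPL7L1 was at 8.42%, 6.61% and 11.8% of RPL7, and at 12.0%, 7.55% and 43.9% with emetine, the last from emetine replicate 3. RPL36AL had a fraction new of 7.19%, 9.93% and 11%, and 7.21%, 7.70% and 9.92% with emetine; its ratio to RPL36A is not given because of the reads that RPL36A shares. Reads that match a paralog, or a processed pseudogene, as well as a member can have been placed on either. Levels of close copies, and the ratios of paralogs to parents, are therefore uncertain.

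The paralogs were compared with their parents in fraction new, except RPL3L and RPL10L, which had too few reads, and RPL36AL, whose parent's value depends on the reads counted. RPL26L1 had a fraction new of 4.83%, 4.97% and 6.58% and RPL26 of 3.21%, 4.08% and 4.08%, higher for the paralog in each untreated library. RPL7 had 3.08%, 3.99% and 4.26%, RPL10 had 2.74%, 3.03% and 3.77%, RPL39 had 2.80%, 3.59% and 4.11%, and RPS27 had 3.22%, 3.72% and 4.23%, all within the band of the members. RPL7L1, RPL22L1, RPL39L and RPL26L1 were above their parents in each untreated library, and RPS27L was below RPS27 in each.

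FAU, which is made as a ubiquitin-like fusion, and RACK1 (listed as GNB2L1), a scaffold on the small subunit, are ribosomal proteins outside the symbol rule, and neither was called for level or fraction new. FAU had a fraction new of 3.07%, 3.94% and 4.18% against 2.55%, 2.96% and 2.73% with emetine, so that the groups did not overlap. Its log2 fold change in level was −0.33 (adjusted p = 0.292), and −0.14 (adjusted p = 0.200) without emetine replicate 3. GNB2L1 had 4591, 4782 and 5001 CPM against 4019, 4267 and 2861 CPM, a log2 fold change of −0.37 (adjusted p = 0.248), and of −0.21 (adjusted p = 0.0574) without that library.

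The 19 other mRNAs listed as TOP mRNAs, mostly translation factors, had slightly higher fraction new values than the members. Their median was 3.43%, 4.38% and 4.91% in untreated and 3.97%, 4.44% and 4.17% in emetine libraries. None was called for level or fraction new, with a median log2 fold change in level of −0.26. Without emetine replicate 3 the median was −0.14, and 3 of the 19 were lowered, where 4.16% of all genes were (EIF3F, PABPC1 and HNRNPA1, named after their values were seen). EEF1A1, the elongation factor that brings aminoacyl-tRNA, had 3.17%, 3.81% and 4.19% against 3.37%, 3.26% and 3.22%, and its log2 fold change in level was −0.44 (SE 0.20, adjusted p = 0.245). EEF2, the translocation factor, had 5.03%, 5.55% and 6.37% (adjusted p = 0.916 for fraction new, 0.513 for level).

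In the 2 h experiment, made with a total RNA kit, the authors' mean of normalized counts over all 9 libraries gave the members 2.92% of the summed signal. The median of the 78 members was 3436 normalized counts, against 845 over all genes, and 37 of the 78 stood in the top 10% of genes. RPL5 (64044 normalized counts) was the highest and RPL41 (140 normalized counts) the lowest. RPS4X had 27209, RPL8 14565 and RPS2 20890 normalized counts. The order of the members followed that of the 1 h CPM in part (Spearman's rho 0.632 over genes, a description). RPL10L, RPL17, RPL39L, RPL3L, RPS10, RPS26 and RPS27 were not in these tables. As the values are means over untreated and emetine libraries, no comparison between doses was made.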

How the data were processed

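TimeLapse-seq libraries (TruSeq Stranded mRNA kit) of 8 HEK-293T samples and tables from 9 total RNA libraries (SMARTer Stranded kit) were used. For the 1 h experiment the authors trimmed reads with cutadapt, mapped them to hg38 with a HISAT aligner that tolerates T-to-C changes and tallied T-to-C conversions per read, and the deposited values are whole read counts without normalization. For the 2 h experiment the authors divided gene counts by spike-in size factors, and the deposited signal is the mean of normalized counts over all 2 h libraries, identical in both tables. The log2 fold changes, standard errors and p-values in those tables are the authors' own comparisons and were not used. No column of per-sample values was left without a sample (0).

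Reads were summed per gene and library. Levels are CPM scaled by TMM. They were compared with edgeR 4.0.16 (TMM, quasi-likelihood test, R 4.3.3) over 13776 genes with more than 100 counts in total. For each gene in each library, the fraction new is the maximum-likelihood share of the component of new reads in a mixture of binomials. The background conversion rate was 0.0504% (untreated) and 0.0521% (emetine), from the libraries without s4U, and the rate in new reads was 8.49% to 9.53%. Logits (bounds 0.001 and 0.999) of 10763 genes that had 100 reads or more in all 6 libraries entered limma 3.58.1 with its trend and robust options, and so did log2(CPM + 0.5) of labeled and of unlabeled reads. All adjusted p-values are Benjamini-Hochberg over all genes tested. The half-life at steady state is 1 h × ln(2) / −ln(1 − fraction new). bakR, used by the authors, was not run. Alternatives used DESeq2 1.42.0 and mgcv 1.9.3, and Python 3.11.15 with numpy 2.4.6, pandas 2.3.3, scipy 1.17.1 and matplotlib 3.10.9 was used otherwise. Both tests were run on simulated data with independent noise for each gene. The simulated data lacked the length trend and the shared shifts between libraries, so they cannot show how calls hold under these.

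Symbols were matched to GENCODE 44 on GRCh38 (17147 by symbol, 1167 by an older symbol, 908 unmatched). Per kb values use the longest annotated transcript, or the coding sequence where stated. Start sequences are from RefSeq, the first entry of a gene with several.

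Members and lists were chosen with earlier results of these data known. Genes were named by rule: paralogs and parents, stalk genes, RPSA, RPS10, RPS20, RPS3, RPL35, RPL5, RPL11, RPS4X, RPS27A, the 3 highest and lowest in level per kb and in fraction new, and the 3 with the smallest p in each direction of both tests. A few genes are not reported here by name. No molecular identifiers are described, so counting errors cover counting only.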

Additional observations from a re-analysis of the deposited data

How the results depend on the processing

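The count of members lowered in level was 0 with all libraries and ran from 0 to 10 when single libraries were left out: 1 without emetine replicate 2 and 10 without emetine replicate 3. The median log2 fold change in level was −0.36, ran from −0.50 to −0.17 with single libraries left out, and was 0.30 with spike-in scaling, where the median gene was at 0.71. The log2 fold change of RPL7L1 ran from −0.26 (without emetine replicate 3) to 0.69 with single libraries left out, and was 1.15 with spike-in scaling. The count of members with a higher fraction new was 1, became 0 with a minimum of 50 reads and with reads of at least 2 conversions, and 4 with centered libraries. With single libraries left out it was 0 or 1. With single libraries left out, the median change in logit fraction new ran from −0.20 to −0.036 (0.01 with centered libraries), that of labeled reads (log2) from −0.68 to −0.35 and that of unlabeled reads from −0.51 to −0.17. The median half-life, with a steady state assumed in both groups, ran from 17.3 to 20.3 h in untreated and from 20.5 to 21.6 h in emetine cells.

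With the replicate number as a block, 0 members were raised, 0 were lowered and 1 had a higher fraction new, with a median level change of −0.40. Over 11409 genes, same-numbered libraries did not deviate together: the correlations of their deviations were 0.06, −0.01 and −0.17 for level. With 3 libraries in each group, this cannot decide whether the numbers pair the samples. The block moved the SE of single level changes either way, as for RPL7 (from 0.28 to 0.11) and RPL3 (from 0.15 to 0.17). Of 442 single-gene values of level under the alternatives, 401 kept direction and side of the threshold, and 424 of 474 values of fraction new did. Of the 37 uncalled level values that changed sign, 30 did so under spike-in scaling.

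Half-lives near 20 h rest on a few percent of labeled reads, and values of RPL36A, RPL17 and RPS10 on a minority of the reads that touch them. The cause of these dependencies was not tested.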
